A study of Macaca mulatta with 6 samples.

Results

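Myelin is the insulating sheath that oligodendrocytes wrap around axons in the brain. It is built from stacked membrane rich in cholesterol and galactolipids, held together by a small set of abundant proteins, and its making is driven by transcription factors such as MYRF. Mature oligodendrocytes also feed and support the axons they wrap, and they hold much of the brain's iron and make its carrier, transferrin. The 45 genes described here encode structural proteins of myelin, enzymes of myelin lipid synthesis and other factors typical of oligodendrocytes. They were found in a table of rhesus genes by symbol, with a mean of at least 10 normalized counts over 6 libraries required. A row was found for 36 of the 45, SEPT4 under its present symbol SEPTIN4, and all 36 reached that mean, so they were 36 of the 16595 genes tested. MAG, CLDN11, OPALIN, HAPLN2, NINJ2, KLK6, NKX6-2, GAL3ST1 and ASPA were not matched to a row by symbol and were not analysed here.

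The libraries were made from polyadenylated RNA of cortical neurons purified from male rhesus monkeys (Macaca mulatta) aged 3 to 4 years, in a study of how chromatin is arranged after chronic morphine. There were 3 libraries from morphine animals, which received this opioid by subcutaneous injection, 3 doses daily over 90 days. The dose was raised each week in steps of 3 mg/kg and held at 15 mg/kg from day 29. The other 3 libraries came from saline animals, injected as often with 0.5 mL/kg of 0.9% saline. The protocol names 4 monkeys, 2 in each group, so at least 2 libraries of a group share an animal. Tests over libraries thus understate p for a comparison of animals, and treatment cannot be told apart from differences between animals. The sources used here do not give the cortical area, how the neurons were purified or whether morphine was withdrawn before sampling.

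Recovered depth lay between 31238653 and 36345095 reads per library. All 15 neuronal markers looked for were measured, among them RBFOX3 with 16869 ± 590 normalized counts in morphine libraries and 14464 ± 157 in saline libraries (SD, n = 3 each). Transcripts of other cells were measured too in these libraries labelled as neurons. The astrocyte gene GFAP had 40539 ± 691 normalized counts in morphine libraries and 30493 ± 704 in saline libraries. RBFOX3 and GFAP do not stand for their lists, in which more markers fell than rose in the test described below. Of 15 neuronal markers 6 fell and 2 rose, and of 11 astrocyte markers 6 fell and 2 rose. Over all genes tested 12.9% rose and 15.0% fell. The oligodendrocyte gene MBP averaged 197809 normalized counts over the 6 libraries. A count grows with transcript length as well as with expression, so where counts of different genes are set side by side they describe the reads behind a value, not expression levels. In such bulk samples, fewer cells of a type and less RNA per cell cannot be told apart.

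Myelin and oligodendrocyte genes changed in both directions in morphine libraries relative to saline libraries. CARNS1, MAL, CNP, CNDP1, SEPT4, FA2H, PPP1R14A, PLLP, TF, CD9 and MOG rose, by 0.22 to 0.66 on the log2 scale. FOLH1, LPAR1, UGT8, BCAS1 and ERMN fell, with log2 fold changes from -0.84 to -0.29. Thus 11 of 36 members rose (30.6%) and 5 fell (13.9%) at an adjusted p under 0.05 in limma, a linear model fitted to log2(normalized count + 1) over all genes. Over all genes tested 27.9% were called: 12.9% rose and 15.0% fell. The members' share of falls was thus near the background, while their share of rises was higher. The members' median log2 fold change was 0.13, against 0.01 over all genes tested. Of the 16 changed members 5 moved by more than 1.5 fold, as did 1726 of the 4631 genes called over all genes tested. Regardless of the call, these were 7 of 36 members and 3282 of 16595 genes. More reads stood behind most members than behind most genes, with 32 of 36 above the median of tested genes (583.9 normalized counts). With a minimum mean of 50, 13 members rose and 6 fell, where 35.8% of genes were called (16.5% rose and 19.3% fell). At an adjusted p under 0.01, 4 members rose and 3 fell, where 9.23% of genes were called (3.82% rose and 5.41% fell). Without morphine library 1, 2 or 3, the number of members that rose was 7, 6 or 7 and the number that fell was 3, 3 or 4. Without saline library 1, 2 or 3, the number that rose was 8, 7 or 8 and the number that fell was 3, 4 or 5. In these 6 fits 6.46% to 9.02% of all genes rose and 8.82% to 10.1% fell.

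**Figure D1:**
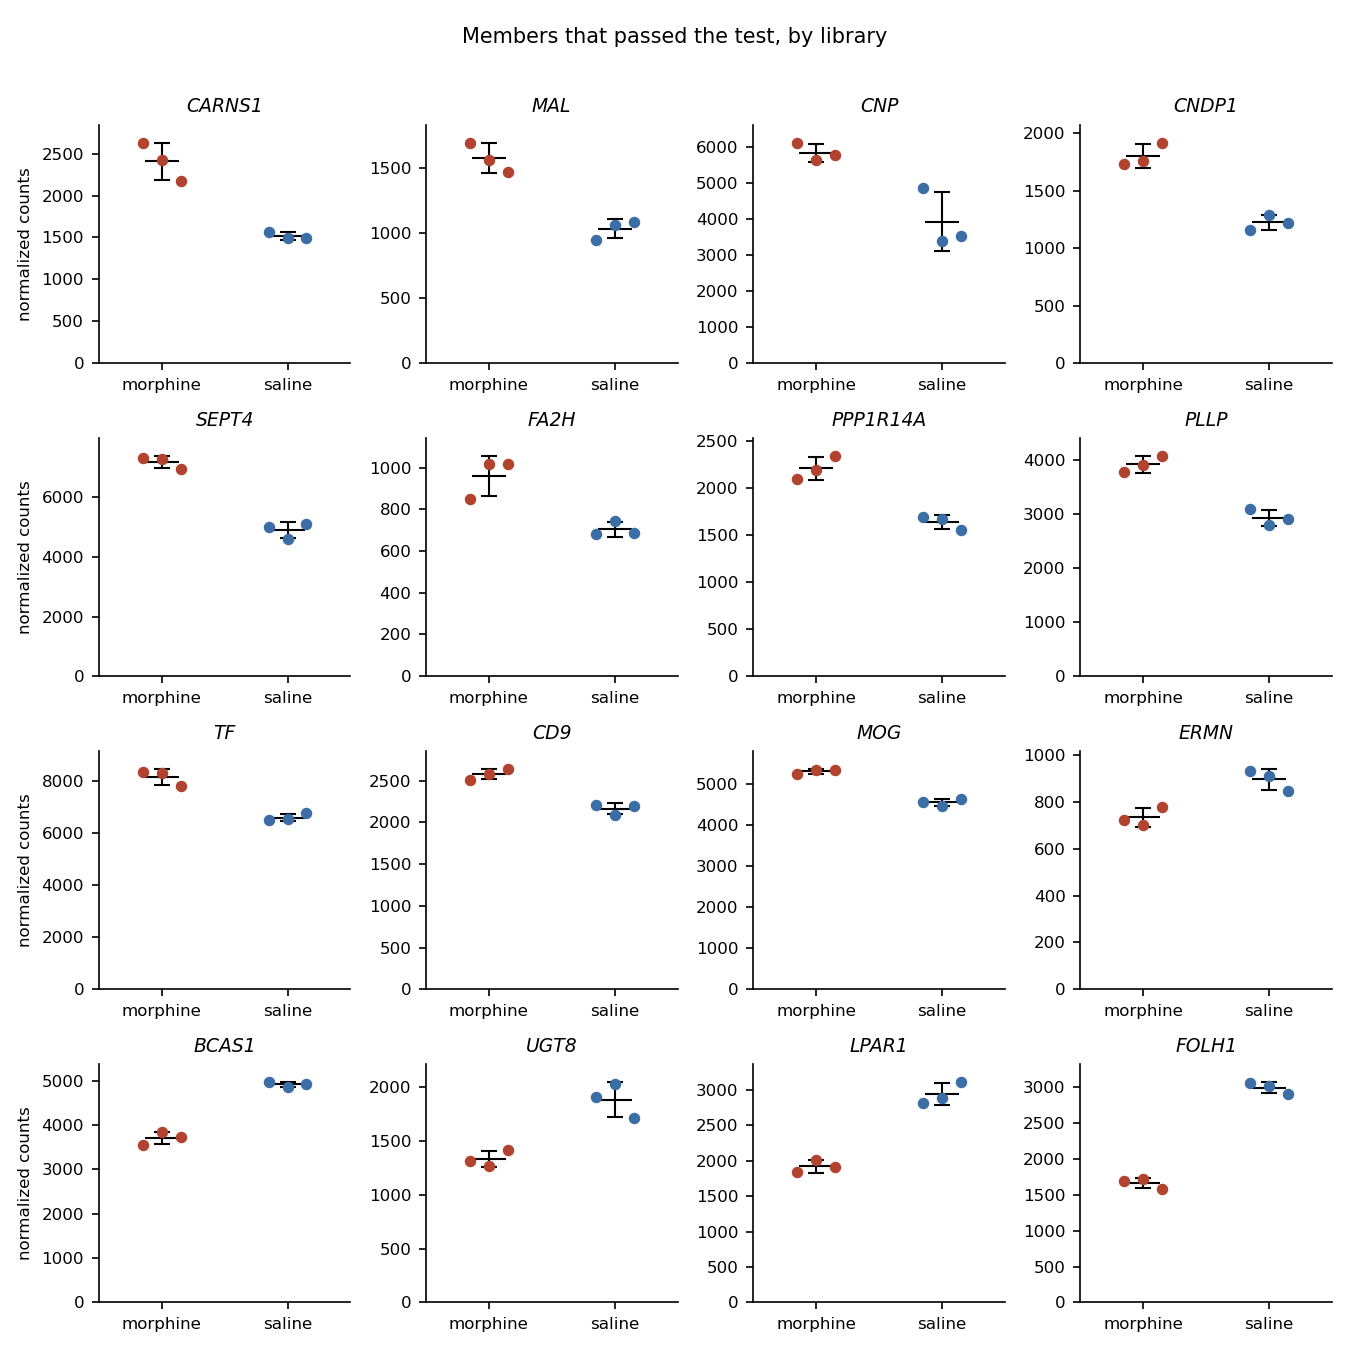
Normalized counts of the 16 members that passed the limma test, in the 3 morphine (red) and 3 saline (blue) libraries, with the group mean and SD in black and each y axis starting at 0. The groups did not overlap for any of these 16 genes, and the largest fold change was that of FOLH1, which averaged 1668 normalized counts in morphine libraries and 2994 in saline libraries.

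Morphine and saline values did not overlap for 22 of the 36 members (61.1%), where the share over all genes tested was 48.7%. For 16 members every morphine library was above every saline library (background 24.1%), and for 6 every morphine library was below (background 24.6%). These 22 were the 16 that passed and MBP, NFASC, GPR37, DAAM2, CLMN and TMEM144, whose groups were separate but which did not pass.

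Among the members grouped as compact myelin and its membrane proteins, 3 of 8 measured members rose and 0 fell. Over all genes tested 12.9% rose and 15.0% fell, and these shares also stand beside the counts of the other roles. A role held at most 8 measured members, so its counts rest on few genes. MAL (ENSMMUG00000001936), a raft protein that sorts other proteins to myelin, had 1698, 1567 and 1471 normalized counts in morphine libraries, against 951.2, 1062 and 1087 in saline libraries. The lowest morphine library was well above the highest saline library, and the log2 fold change was 0.61 ± 0.09 (SE; limma adjusted p = 0.00846). PLLP (plasmolipin), which shares with MAL a type of membrane-spanning domain, had 3773, 3906 and 4081 normalized counts in morphine libraries and 3086, 2800 and 2905 in saline libraries. This is a rise of 0.42 ± 0.06 with separate groups (limma adjusted p = 0.0101).

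CD9, a tetraspanin of the myelin membrane, had 2513, 2586 and 2638 normalized counts in morphine libraries and 2210, 2094 and 2194 in saline libraries. The groups were separate and the rise was small, at 0.25 ± 0.05 on the log2 scale (limma adjusted p = 0.0226). CD9 missed the threshold in all 6 fits that left out 1 library (limma adjusted p from 0.0535 to 0.0728). The other tetraspanin, TSPAN2, had few reads, with between 56.2 and 133 normalized counts in all libraries and overlapping groups (log2 fold change -0.22 ± 0.39, limma adjusted p = 0.701). Its 95% interval, from -1.22 to 0.77, does not set it apart from CD9.

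MBP (ENSMMUG00000011333), the basic protein that glues the inner faces of the myelin membrane together, had 201724, 203012 and 203413 normalized counts in morphine libraries and 193135, 189610 and 195962 in saline libraries. Every morphine library was above every saline library, yet the difference was slight: the log2 fold change was 0.07 ± 0.05, with a 95% interval from -0.04 to 0.19 (limma adjusted p = 0.29). On recovered reads MBP passed in edgeR (adjusted p = 0.0037) and in DESeq2 (adjusted p = 0.0233) with a log2 fold change of 0.07 in both. MOBP, a second basic protein of myelin, did not pass (log2 fold change -0.08 ± 0.11, 95% interval from -0.35 to 0.19). PMP22, better known from the myelin of peripheral nerve, had a log2 fold change of 0.10 ± 0.06, and TMEM125, a membrane protein, one of 0.26 ± 0.13. Neither passed, and the groups overlapped for both.

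**Figure D2:**
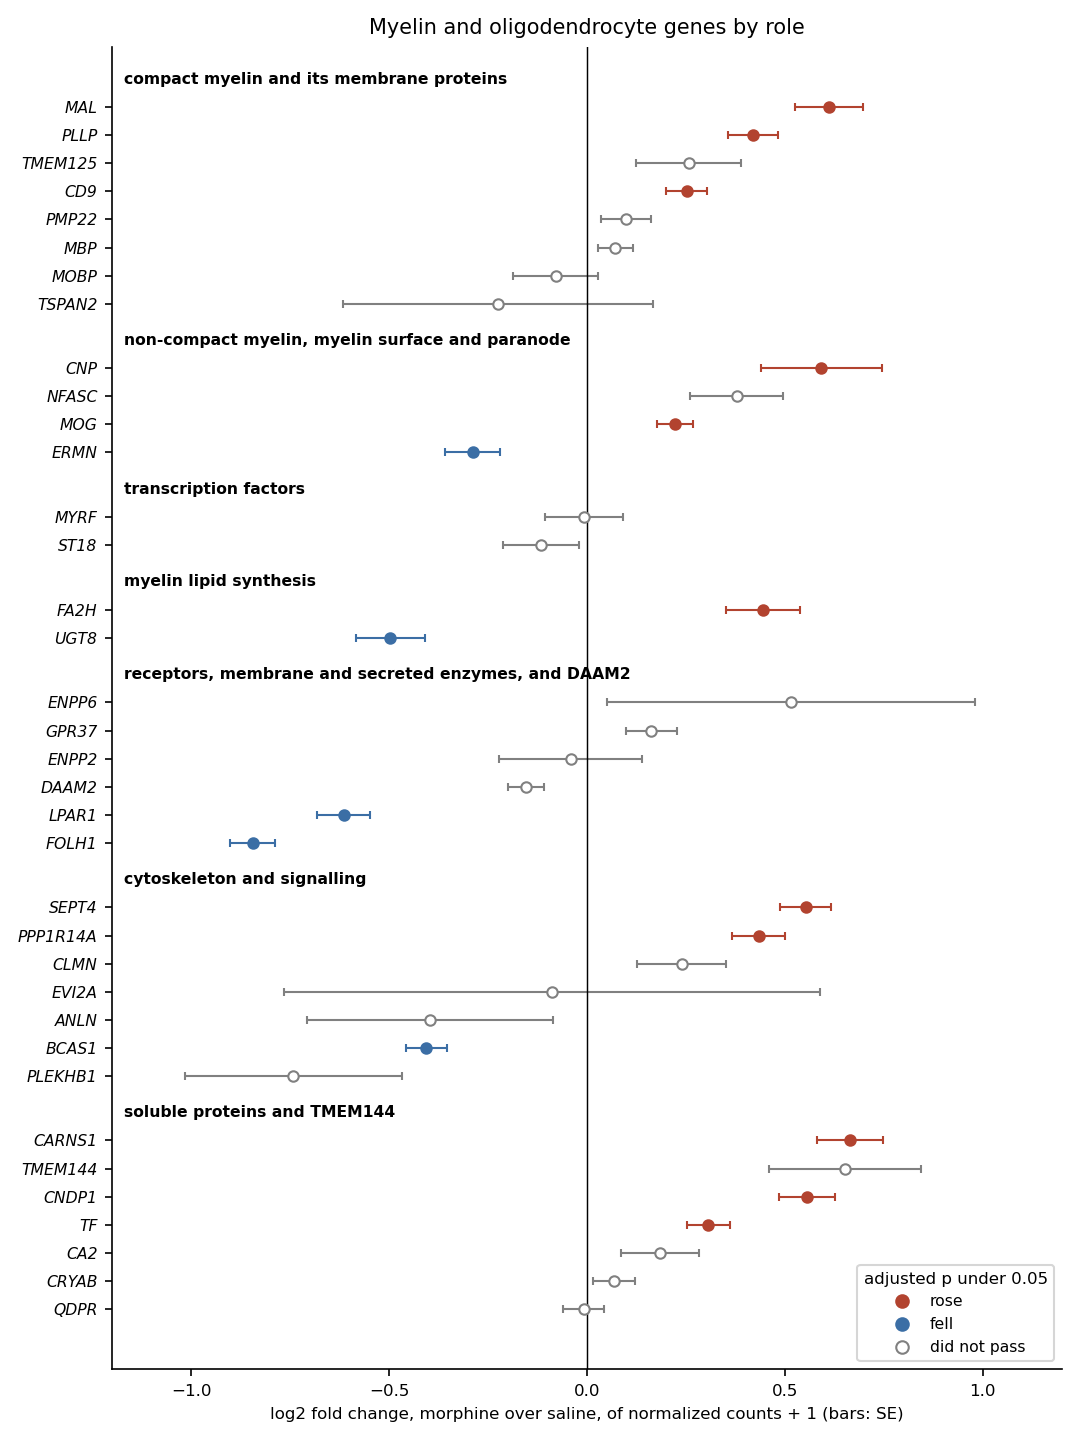
Log2 fold change of normalized counts + 1, morphine over saline, for the 36 measured members grouped by role, with the standard error as bars. Filled red points rose, filled blue points fell, and open grey points did not pass at a limma adjusted p under 0.05: neither transcription factor is filled, and the lowest filled points are FOLH1 and LPAR1.

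Of the proteins of non-compact myelin, the myelin surface and the paranode, 2 of 4 measured members rose and 1 fell. MOG, an adhesion protein on the outermost myelin surface, had 5228, 5333 and 5337 normalized counts in morphine libraries and 4555, 4459 and 4617 in saline libraries. Libraries lay close together, with coefficients of variation of 1.17% in morphine and 1.75% in saline libraries, and the rise was 0.22 ± 0.05 (limma adjusted p = 0.0234). MOG missed the threshold in all 6 fits that left out 1 library (limma adjusted p from 0.0565 to 0.0768).

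CNP, a phosphodiesterase that keeps channels of cytoplasm open in myelin, had 6115, 5622 and 5779 normalized counts in morphine libraries, against 4858, 3395 and 3516 in saline libraries. Saline library 1 stood above the other two saline libraries, and the groups did not overlap. The log2 fold change was 0.59 ± 0.15 (limma adjusted p = 0.0419), and CNP passed without saline library 1 (limma adjusted p = 0.0141). In the 5 fits without another library it did not (limma adjusted p from 0.0976 to 0.114). The spans of MBP, CNP, ERMN, PPP1R14A, ANLN, TMEM144 and EVI2A each overlap another protein-coding gene in the rhesus assembly T2T-MMU8v2.0 (for CNP, DNAJC7). The sources used here do not say whether reads were assigned by strand, so some of their reads may belong to the neighbour.

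ERMN (ermin), a protein that links the cytoskeleton to late myelin, had 721.6, 700.9 and 780.2 normalized counts in morphine libraries and 931.5, 913.1 and 846.8 in saline libraries. Its fall was by 0.29 ± 0.07 on the log2 scale (limma adjusted p = 0.0346). It passed without saline library 3 (limma adjusted p = 0.0497) and in none of the 5 fits without another library (limma adjusted p from 0.0502 to 0.102). NFASC (neurofascin), which anchors myelin loops at the paranode and sodium channels at the node through different isoforms, had 961.8, 980.5 and 918.6 normalized counts in morphine libraries and 695.6, 655.5 and 864.8 in saline libraries. It did not pass (log2 fold change 0.38 ± 0.12, limma adjusted p = 0.067), but did without saline library 3 (limma adjusted p = 0.0218), the highest of its group. With all libraries it passed in edgeR (adjusted p = 0.0322) and in limma with a minimum mean of 50 (adjusted p = 0.0474). The counts add up the glial and neuronal isoforms of NFASC.

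The 2 measured transcription factors did not pass. MYRF (ENSMMUG00000006655), which switches on the myelin program, had 909.7, 1090.3 and 1111.7 normalized counts in morphine libraries and 1083, 1056 and 979.7 in saline libraries. The groups overlapped, with a log2 fold change of -0.0081 ± 0.10 (limma adjusted p = 0.959) and a 95% interval from -0.26 to 0.24. ST18, a zinc finger factor, had a log2 fold change of -0.12 ± 0.10, also with overlapping groups.

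The 2 measured enzymes of myelin lipid synthesis moved in opposite directions. FA2H, which adds a hydroxyl group to the fatty acids of myelin lipids, had 850.2, 1016 and 1018 normalized counts in morphine libraries and 682.8, 743.7 and 684.4 in saline libraries. UGT8, which joins galactose to ceramide to make the main galactolipid of myelin, had 1316, 1267 and 1419 normalized counts in morphine libraries and 1911, 2035 and 1711 in saline libraries. FA2H was thus higher in every morphine library and UGT8 lower in every one. The rise of FA2H was 0.45 ± 0.09 (limma adjusted p = 0.024), and it passed without morphine library 1 but in none of the 5 other fits without 1 library (limma adjusted p from 0.0506 to 0.0754). UGT8 fell by 0.50 ± 0.09 (limma adjusted p = 0.0154), and did not pass without morphine library 1 or 2 or saline library 1 (limma adjusted p = 0.054, 0.0548 and 0.0501).

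Among receptors, membrane and secreted enzymes and the formin DAAM2, 2 of 6 members fell and 0 rose. FOLH1 (ENSMMUG00000012596), a membrane peptidase that splits the neuropeptide N-acetylaspartylglutamate, had 1693, 1724 and 1587 normalized counts in morphine libraries, against 3057, 3019 and 2906 in saline libraries. It fell by 0.84 ± 0.06 on the log2 scale, which is 1.80 fold (limma adjusted p = 0.00212), and passed in all 6 fits without 1 library (limma adjusted p from 0.0126 to 0.0145). LPAR1 (ENSMMUG00000006906), a receptor for lysophosphatidic acid, had 1836, 2015 and 1909 normalized counts in morphine libraries and 2820.1, 2892 and 3112 in saline libraries. Its fall was by 0.61 ± 0.07, which is 1.53 fold (limma adjusted p = 0.00485). Both genes stayed well below the lowest saline library in every morphine library.

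ENPP2 (autotaxin), the secreted enzyme that makes lysophosphatidic acid, had 1512, 2369 and 2142 normalized counts in morphine libraries and 2138, 2032 and 1926 in saline libraries. Morphine library 1 stood below all others and the groups overlapped, so that the log2 fold change was -0.04 ± 0.18 with a 95% interval from -0.50 to 0.41. Without that library it was 0.15 (limma adjusted p = 0.277). ENPP6, a choline-releasing phosphodiesterase that marks newly formed oligodendrocytes in mice, had the fewest counts of the members, with 42.5, 83.5 and 101 normalized counts in morphine libraries and 82.9, 43.1 and 33.7 in saline libraries. The groups overlapped (log2 fold change 0.51 ± 0.47, limma adjusted p = 0.447).

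GPR37, an orphan receptor that restrains oligodendrocyte maturation in mice, had a log2 fold change of 0.16 ± 0.06 and did not pass (limma adjusted p = 0.119). DAAM2, a formin that takes part in Wnt signalling, had 17805, 17777 and 17441 normalized counts in morphine libraries and 19825, 19508 and 19683 in saline libraries. Libraries within a group were close and the groups separate, but the log2 fold change of -0.15 ± 0.04 did not pass in limma (adjusted p = 0.0562). It passed in edgeR (adjusted p = 0.00155) and in limma with a minimum mean of 50 (adjusted p = 0.0415).

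Of 7 members that act in the cytoskeleton and in signalling, 2 rose and 1 fell. SEPT4 (ENSMMUG00000008423), a septin of the filaments that scaffold myelin, had 7340.5, 7276 and 6946 normalized counts in morphine libraries and 5021, 4589 and 5105 in saline libraries. The rise was 0.55 ± 0.06 (limma adjusted p = 0.00554), with every morphine library far above every saline library. ANLN (anillin), which helps to load those septin filaments into myelin in mice, had 1094, 1266 and 572.7 normalized counts in morphine libraries and 1171, 1222 and 1267 in saline libraries. Morphine library 3 lay far below the other 5, and ANLN did not pass (log2 fold change -0.40 ± 0.31, limma adjusted p = 0.383).

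PPP1R14A, an inhibitor of myosin phosphatase, had 2101, 2194 and 2344 normalized counts in morphine libraries and 1691, 1669 and 1554 in saline libraries, a rise of 0.43 ± 0.07 (limma adjusted p = 0.0112). BCAS1, a protein that in mice and humans marks oligodendrocytes at the start of myelination, had 3558, 3837 and 3735 normalized counts in morphine libraries and 4963, 4858 and 4920 in saline libraries. Its fall was by 0.41 ± 0.05 with separate groups (limma adjusted p = 0.00703). PLEKHB1, a membrane protein with a lipid-binding domain, spread widely, with 7391, 7888 and 11850 normalized counts in morphine libraries and 16884, 10833 and 17671 in saline libraries. Morphine library 3 was above saline library 2, and the log2 fold change of -0.74 ± 0.27 did not pass in limma (adjusted p = 0.103), although it did in edgeR (adjusted p = 0.0308). CLMN did not pass (log2 fold change 0.24 ± 0.11).

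EVI2A, a membrane protein gene that lies within the span of NF1, spread more within the groups than between them. It had 332.6, 1029 and 1029 normalized counts in morphine libraries, against 347.3, 1123 and 1086 in saline libraries, each in the order of their numbers. Library 1 of each group thus lay far below the other two. The log2 fold change was -0.09 ± 0.68 (limma adjusted p = 0.934), with a 95% interval from -1.80 to 1.63. Without morphine library 1 the log2 fold change was 0.45 (limma adjusted p = 0.629), and no fit without 1 library passed.

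**Figure D3:**
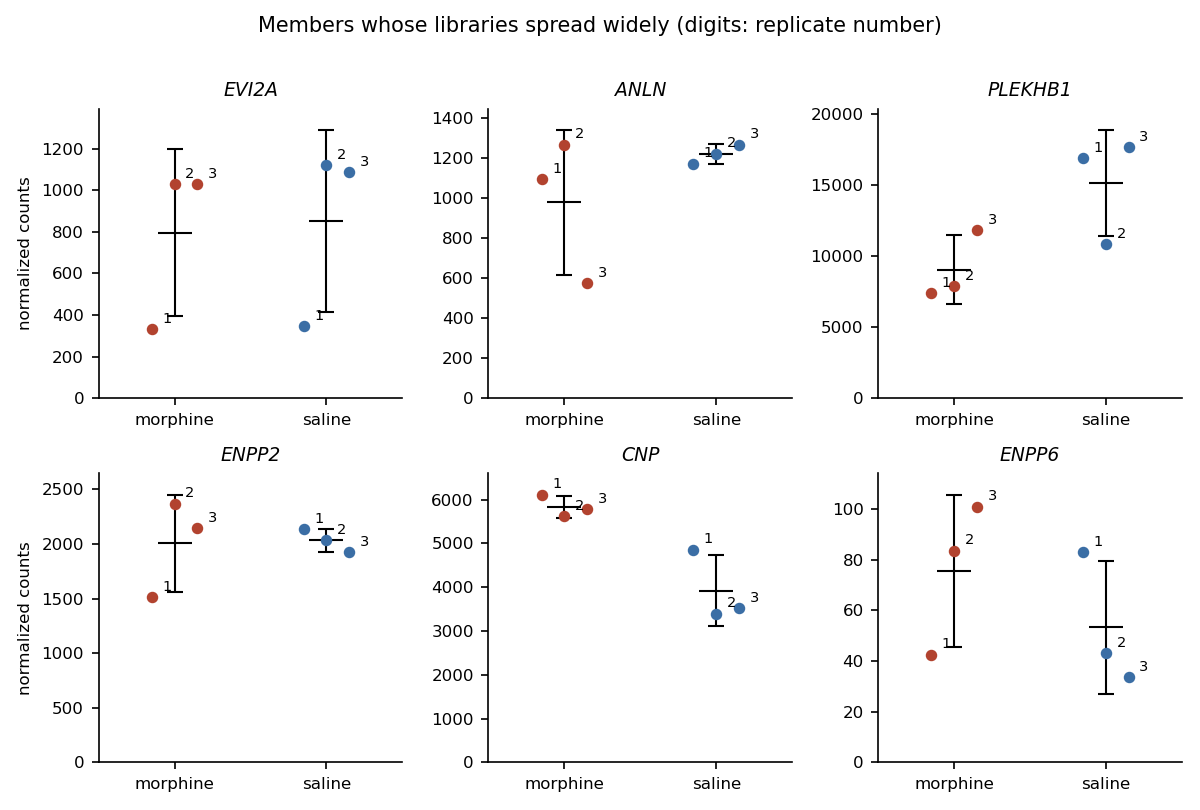
Normalized counts of 6 members chosen after their values were seen, by library, with morphine (red) left of saline (blue), replicate numbers beside the points, and the group mean and SD in black. EVI2A is low in library 1 of both groups, ANLN in morphine library 3 and ENPP2 in morphine library 1, while CNP is high in saline library 1.

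Among the soluble proteins and TMEM144, 3 of 7 members rose and 0 fell. CARNS1 (ENSMMUG00000005480), the enzyme that makes carnosine, had 2626, 2422 and 2180.1 normalized counts in morphine libraries, against 1566, 1488 and 1495 in saline libraries. The rise was 0.66 ± 0.08, or 1.58 fold (limma adjusted p = 0.00655). CNDP1, the secreted enzyme that splits carnosine, had 1727, 1760.3 and 1917 normalized counts in morphine libraries and 1161, 1291 and 1221 in saline libraries, a rise of 0.56 ± 0.07 (limma adjusted p = 0.00679). For both enzymes of carnosine, the lowest morphine library was above the highest saline library, and both passed in all 6 fits without 1 library.

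TF, the iron carrier transferrin, had 8345, 8319 and 7810 normalized counts in morphine libraries and 6485, 6531 and 6763 in saline libraries. Its rise was 0.31 ± 0.05 (limma adjusted p = 0.0151), and it did not pass without morphine library 1 or 2 (limma adjusted p = 0.054 and 0.0565). TMEM144, a membrane protein, had 336.9, 295.0 and 428.5 normalized counts in morphine libraries and 268.4, 214.5 and 189.8 in saline libraries, with separate groups. Its log2 fold change of 0.65 ± 0.19 did not pass in limma (adjusted p = 0.0588) but did in edgeR (adjusted p = 0.0258) and in limma with a minimum mean of 50 (adjusted p = 0.0405). The carbonic anhydrase CA2 (0.18 ± 0.10), the small heat shock protein CRYAB (0.07 ± 0.05) and the pterin reductase QDPR (-0.0088 ± 0.05) did not pass, as log2 fold changes. QDPR was the closest of these to no difference, with a 95% interval from -0.14 to 0.12.

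The counts of calls depended on the tool and, within limma, on the variance setting. With edgeR on recovered reads 14 members rose and 7 fell, where 34.0% of all genes were called (16.3% rose and 17.7% fell). DESeq2 also gave 14 and 7, where 36.8% of all genes were called (18.0% rose and 18.9% fell). By the adjusted p of the authors' deposited table, 14 members were higher and 6 lower in morphine libraries, where 34.1% of all genes were called (16.4% higher and 17.7% lower). The members called by edgeR and not by limma without an intensity trend were MBP, NFASC and TMEM144, which rose, and DAAM2 and PLEKHB1, which fell. With an intensity trend limma also gave 14 members that rose and 7 that fell, with 5716 of 16595 genes called. The members it added were the same 5.

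**Figure D4:**
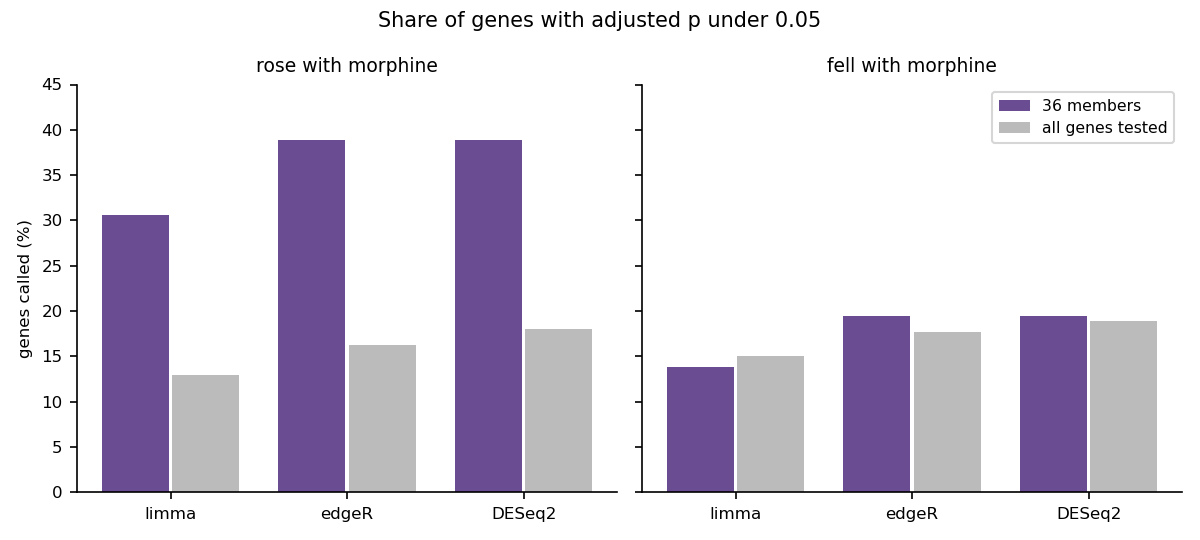
Share of genes that rose (left) or fell (right) with morphine at an adjusted p under 0.05, in percent, for the 36 members (purple) and for all genes tested (grey), by tool. The members' bars for rises, at 30.6% to 38.9%, are above the grey bars at 12.9% to 18.0%, and for falls the bars lie close together.

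Summed over the 36 members, morphine libraries held between 314920 and 321257 normalized counts and saline libraries between 299936 and 315156, so the ranges overlapped. MBP made up most of that sum. Without it the sums ran from 113196 to 117843 in morphine libraries and from 110326 to 119193 in saline libraries, again with overlap. As a share of all counts of a library, the members held 0.949% to 0.973% in morphine and 0.881% to 0.928% in saline libraries, without overlap. Without MBP these shares were 0.341% to 0.357% in morphine and 0.324% to 0.351% in saline libraries, which overlapped. The members' spread within a group was moderate, with a median coefficient of variation of 5.58% in morphine and 5.20% in saline libraries, against 8.26% and 8.86% over all genes tested. It was above 20% in 6 members in morphine libraries and in 5 in saline libraries.

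Other oligodendrocyte genes moved in both directions too. Of 31 measured genes of this kind outside the list, 10 rose and 5 fell, with a median log2 fold change of 0.06. Over all genes tested 12.9% rose and 15.0% fell. In edgeR 12 of the 31 rose and 6 fell, where 16.3% of all genes rose and 17.7% fell. In limma with 1 library left out 7 or 8 of them rose and 1 to 3 fell. In those fits 6.46% to 9.02% of all genes rose and 8.82% to 10.1% fell. OLIG2, a factor that specifies the oligodendrocyte lineage, rose by 0.52 ± 0.06, ABCA2, a lipid carrier, by 0.35 ± 0.05 and TTYH2 by 0.43 ± 0.05 (limma adjusted p = 0.00636, 0.00782 and 0.00514). DNM3, a dynamin also made by neurons, fell by 0.67 ± 0.09 (limma adjusted p = 0.00729). SOX10 and OLIG1 were not analysed here.

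**Figure D5:**
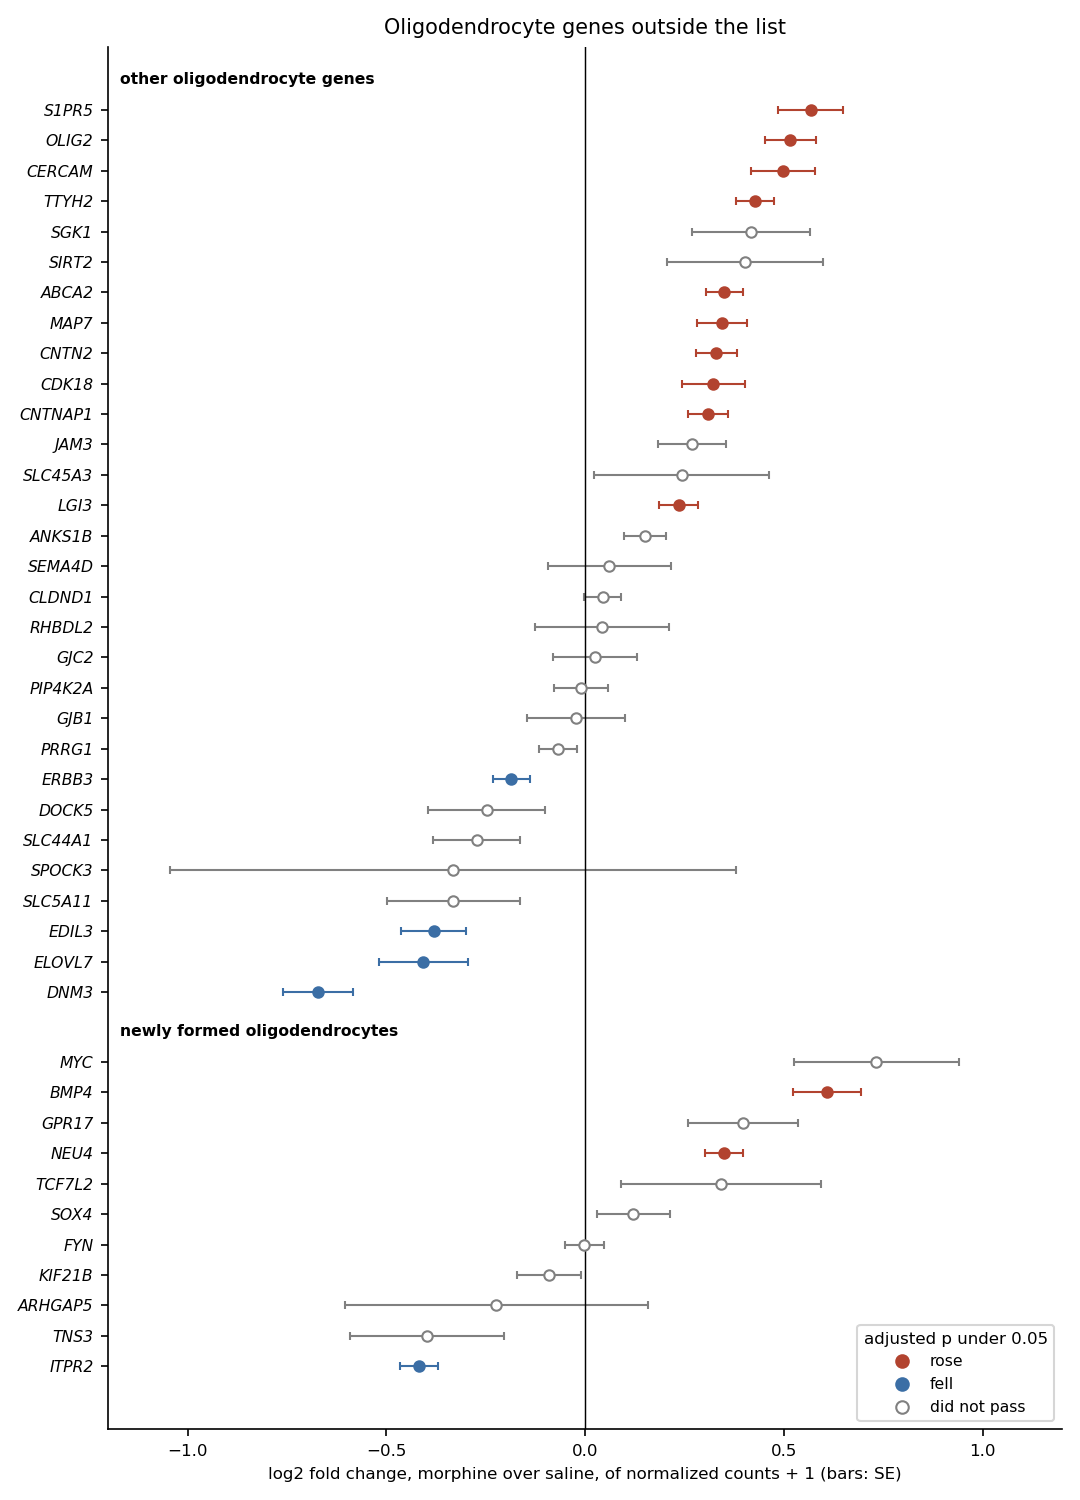
Log2 fold change of normalized counts + 1, morphine over saline, for the oligodendrocyte genes outside the list that are reported here and 11 genes of newly formed oligodendrocytes, with the standard error as bars. Filled red points rose, filled blue points fell and open grey points did not pass at a limma adjusted p under 0.05, and the filled points lie on both sides of 0.

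Of 17 measured genes of oligodendrocyte precursors 6 rose and 2 fell, while PDGFRA, their main growth factor receptor, did not pass (log2 fold change 0.16 ± 0.05, limma adjusted p = 0.0753). Beside the counts of this list and the next stand 12.9% of all genes tested that rose and 15.0% that fell. Without 1 library 3 or 4 of the precursor genes rose and 2 fell. In those fits 6.46% to 9.02% of all genes rose and 8.82% to 10.1% fell. LUZP2 fell by 1.11 and GPNMB, which macrophages also make, by 1.72, and NEU4 rose by 0.35 and CSPG5 by 0.32. Of 11 genes of newly formed oligodendrocytes 2 rose and 1 fell: BMP4 and NEU4 rose, BMP4 by 0.61, and ITPR2 fell by 0.42. GPR17, a receptor of cells about to mature, did not pass (log2 fold change 0.40 ± 0.14, limma adjusted p = 0.09) except without saline library 3 (limma adjusted p = 0.0317).

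Markers of other cells moved with the group, and their part in the members' values was not tested. Beside the counts of each marker list stand 12.9% of all genes tested that rose and 15.0% that fell. Of 11 measured astrocyte markers 6 fell and 2 rose, and their summed level lay between 260124 and 263692 normalized counts in morphine libraries and between 314362 and 319850 in saline libraries. AQP4 fell by 0.48 and GFAP rose by 0.41. Of 15 neuronal markers 6 fell and 2 rose, with sums from 333929 to 335081 in morphine and from 395671 to 405278 in saline libraries, SNAP25 falling by 0.54 and RBFOX3 rising by 0.22. The neuronal rises were lost in each fit without 1 library, and for RBFOX3 the limma adjusted p was then 0.0608 to 0.0933. Of 8 microglia markers 4 rose and 2 fell, with sums from 7949 to 8488 in morphine and from 5491 to 5860 in saline libraries, P2RY12 falling by 0.47 and PTPRC by 0.51. The 4 microglia markers that rose did so by 0.87 to 1.69 on the log2 scale and passed in all 6 fits without 1 library, CSF1R and ITGAM (named after their values were seen) with 0.87 and 1.16. The median of the 8 was 0.66. The fall of PTPRC was lost without morphine library 2 (limma adjusted p = 0.058) and without saline library 1, 2 or 3 (limma adjusted p = 0.0658, 0.0707 and 0.0522). Of 11 endothelial and mural markers 4 rose and 3 fell, with sums from 13507 to 13769 in morphine and from 13937 to 14522 in saline libraries. No defining marker that was measured was at 0.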

How the data were processed

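RNA was sequenced in 6 libraries, whose titles give group and number, at 31238653 to 36345095 recovered reads each. Per the submitters' processing notes the tools were StringTie, Bowtie2 2.1.0 and DESeq2 1.18.1, and hg19 is the build named; what each was used for is not stated. The identifiers are rhesus Ensembl genes, so no coordinates are given. The authors deposited, per the file headers, a table of 23191 genes with a signal per library (from the values, reads divided by 1 factor per library), their log2 fold changes and standard errors, a test statistic (score), and p-values. All values came out as whole reads within 0.001 after division by the worth of 1 read (100% in each library). A second deposited table, a subset of genes, was not used. Symbols came from a table of gene names (15436 identifiers matched, 66.6%).

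Genes with a mean of at least 10 were tested in R 4.3.3 on log2(value + 1) with limma 3.58.1, with group as the only term, two-sided, adjusted by Benjamini-Hochberg over all 16595 genes. Fold changes are on that scale, which understates changes of low genes. Intervals are 95% from limma. Libraries of a group differed by more than sampling noise. Alternatives were other scalings, filters and pseudocounts, a replicate block, an intensity trend, the omission of each library, a threshold of 0.01 on the adjusted p, edgeR 4.0.16 and DESeq2 1.42.0 on recovered reads (5636 and 6105 genes called), and the authors' comparison. The fits were tested on simulated data. That simulation had few changed genes and no shared animals, unlike these data, so it does not show how reliable the calls here are. Members and lists were chosen with earlier results of these data known. Full statistics are given for members that passed and for MBP, MOG, MOBP, CNP and MYRF. Of each other list up to 4 genes with the smallest adjusted p may be named, with OLIG2, PDGFRA, GPR17 and defining markers always. Some genes under this rule are not reported here. Gene spans that overlap were read from RefSeq (T2T-MMU8v2.0). Python 3.11.15 and matplotlib 3.10.9 made the figures.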

Additional observations from a re-analysis of the deposited data

How the results depend on the processing

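All 16 members that passed kept their direction under the 18 alternatives, and 5 of them (FOLH1, LPAR1, SEPT4, CARNS1 and CNDP1) passed under every one. Across all genes, 4631 were called. These counts moved by over 1.5 times with an adjusted p under 0.01 (1532 genes, 4 members that rose, 3 that fell) and without a filter (2993 genes, 7 members that rose). With 1 library left out the ranges were 2536 to 3181 genes, 6 to 8 members that rose and 3 to 5 that fell, and all 3 counts were within 1.5 times without saline library 3. Fewer samples or a stricter threshold make these by construction, and the cause of the change without a filter was not tested. With the replicate number as a block 1577 genes were called, 3 members rose and 2 fell. No source used here states that the numbers pair the libraries. Deviations from the group mean correlated at -0.056, -0.0039 and -0.028 for numbers 1, 2 and 3 over 16595 genes. A correlation over all genes cannot exclude an effect shared by some of them. For EVI2A the standard error was 0.68 without the block and 0.057 with it (limma adjusted p = 0.34 with the block). The block lost the calls of 11 members, and it also leaves fewer degrees of freedom. Signs that turned belong to members that did not pass. With upper-quartile scaling the log2 fold changes were 0.0075 for MYRF and 0.0068 for QDPR. With 1 library left out, the log2 fold change ranged from -0.061 to 0.084 for MYRF, from -0.027 to 0.015 for QDPR, from -0.15 to 0.0092 for MOBP, from -0.59 to 0.023 for TSPAN2, from -0.17 to 0.15 for ENPP2 and from -0.64 to 0.45 for EVI2A. No scaling moved the median of all genes by over 0.1. ENPP6 and TSPAN2 had the fewest reads and wide intervals.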

Other observations

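Genes of membrane lipids outside the list moved in both directions. Of 23 measured genes of sphingolipid and galactolipid metabolism 5 rose and 6 fell, where 12.9% of all genes tested rose and 15.0% fell. ASAH1, the acid ceramidase, fell by 0.59 ± 0.05 (limma adjusted p = 0.0034). ARSA, the lysosomal enzyme that removes sulfate from the sulfatide of myelin, had 1034 ± 47.0 normalized counts in morphine libraries and 636.0 ± 53.4 in saline libraries (SD, n = 3 each), a rise of 0.70 ± 0.08 (limma adjusted p = 0.00547). CPTP, which carries ceramide phosphate, rose by 0.44 and DEGS1, which makes ceramide, by 0.32. Of 15 measured genes of cholesterol synthesis 4 rose and 1 fell, and MVD rose by 0.64, LSS by 0.47 and TM7SF2 by 0.31. Without 1 library 1 to 3 of them rose and 0 or 1 fell. In those fits 6.46% to 9.02% of all genes rose and 8.82% to 10.1% fell. MVD was lost without morphine library 1 or 2 (limma adjusted p = 0.0586 and 0.0575), LSS also without morphine library 3 or saline library 2 (highest limma adjusted p 0.0631).

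Partners of the axon at the node and paranode moved in both directions as well. Of 18 measured genes 4 rose and 3 fell, where 12.9% of all genes tested rose and 15.0% fell. In edgeR 4 of the 18 rose and 7 fell, where 16.3% of all genes rose and 17.7% fell. The adhesion genes CNTN1 and NRCAM fell by 0.85 and 0.66, while CNTN2 and CNTNAP1 rose by 0.33 and 0.31. CNTN2 and CNTNAP1 were also counted among the other oligodendrocyte genes. Of 8 measured markers of Schwann cells and peripheral myelin 2 rose and 3 fell, with PRX up by 0.96 on the log2 scale, PMP2 down (log2 fold change -1.16), EGR2 down (-0.70) and L1CAM up by 0.30. L1CAM passed without saline library 3 but in none of the 5 other fits with 1 library left out (limma adjusted p from 0.0562 to 0.0681).

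Neighbours of EVI2A were looked at after its values had been seen. EVI2B had 150.9, 233.3 and 232.5 normalized counts in morphine libraries, against 213.1, 281.7 and 255.2 in saline libraries, in the order of their numbers, so library 1 was the lowest of each group there too. NF1, whose span holds EVI2A, had 4149, 2771 and 3842 normalized counts in morphine libraries and 5889.8, 5486 and 5680.1 in saline libraries, and library 1 was the highest of each group. OMG, a myelin glycoprotein gene outside the list, had 2852, 3007 and 2873 normalized counts in morphine libraries, against 3632, 3826 and 3814.5 in saline libraries, and fell by 0.37 ± 0.05 (limma adjusted p = 0.00891). Library 1 was the lowest of each group in OMG as well, by a far smaller margin than in EVI2A. The cause was not tested.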
